A study of Astyanax mexicanus with 12 samples.

Results

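Of the 683 miRNAs counted in 24 hpf embryos of *Astyanax mexicanus*, 88 had a mean of at least 1000 and under 10000 counts per library, and 68 of these showed no large step between the 4 morphs. These 68 abundant miRNAs without a morph step are described here. They were chosen by their measured levels. For each morph the mean CPM of its libraries (counts scaled to a library total of 1e+06) was taken as log2(mean CPM + 0.5), the values of the 4 morphs were sorted, and the largest gap between neighbours had to be under 0.7 on the log2 scale. The remaining 20 miRNAs of the same count range had a gap of 0.7 or more. Since the morph means chose the members, the differences between morphs are given below as descriptions, with their standard errors and with the libraries that carry them, and p-values of single members are left out.

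A miRNA is a small RNA that guides a silencing complex to partly complementary sites, mostly in the 3′ UTR of mRNAs, and its seed, a short stretch near its 5′ end, does most of the pairing. Many miRNAs are known to tune rather than switch the levels of their targets, and in early zebrafish embryos miRNAs are known for helping to clear maternal mRNAs. The names used by the authors, astmex-miR- followed by a number, number the miRNAs of this species and do not mark a relation to same-numbered miRNAs of zebrafish or other species. Mature sequences were not analysed here, and no role is therefore given for a member. The prefix astmex- is left out below.

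The samples were wild-type embryos with no treatment named, from the river-dwelling surface fish and from cavefish of 3 caves called Pachón, Tinaja, and Molino, with 3 libraries for each morph. Whole embryos were used, so the makeup of cell types was not resolved, and a lower level can come from fewer cells that express a miRNA or from less of it per cell. The methods give 50 embryos for each morph and do not say how these were divided among libraries, so the spread between libraries may be technical. Total counts lay between 5539157 and 8537696 in surface fish, 10035615 and 15279059 in Pachón, 7565642 and 14673376 in Tinaja, and 7683993 and 8275406 in Molino, so depth and morph were partly confounded. Replicate libraries differed by more than counting noise (chi-square per degree of freedom of 10.6 to 543), so none was taken as a repeat of another. Every member had at least 506 counts in each library, and counting error alone amounted to an SD of 0.0268 on the log2 scale for the median member.

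Together the members made up a small and steady share of each library. The share was 2.76% of the counts in the median surface fish library (range 2.73% to 2.86%), 2.72% in Pachón (2.64% to 2.77%), 2.91% in Tinaja (2.81% to 2.92%), and 2.42% in Molino (2.38% to 2.45%). All 3 Molino libraries thus lay below the other 9. The most abundant miRNA of the table, miR-1, no member, took 43.0% of the counts in Molino against 34.0% to 37.6% in the other morphs, and its part in the lower share was not tested. Among the members, mean levels ranged from 102.5 to 993 CPM after TMM adjustment of the library sizes (trimmed mean of M values, an edgeR scaling by the bulk of the miRNAs). This is the scale of all levels and log2 values below unless another scale is named.

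At the lower edge of abundance, miR-213 was inside with a mean of 1001 counts and miR-94 outside with 987. At the upper edge, miR-40 was inside with 9886 counts and miR-39 outside with 11007. On the scale of the rule, CPM without TMM adjustment, the gap rule kept miR-209, whose largest gap was 0.69, and left out miR-89, with 0.71. The list was little affected by the scale. With TMM or RLE adjustment (relative log expression, the DESeq2 way of scaling) 69 miRNAs met the rule, all 68 members among them, and with 1 library left out 66 to 71 did.

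**Figure D1:**
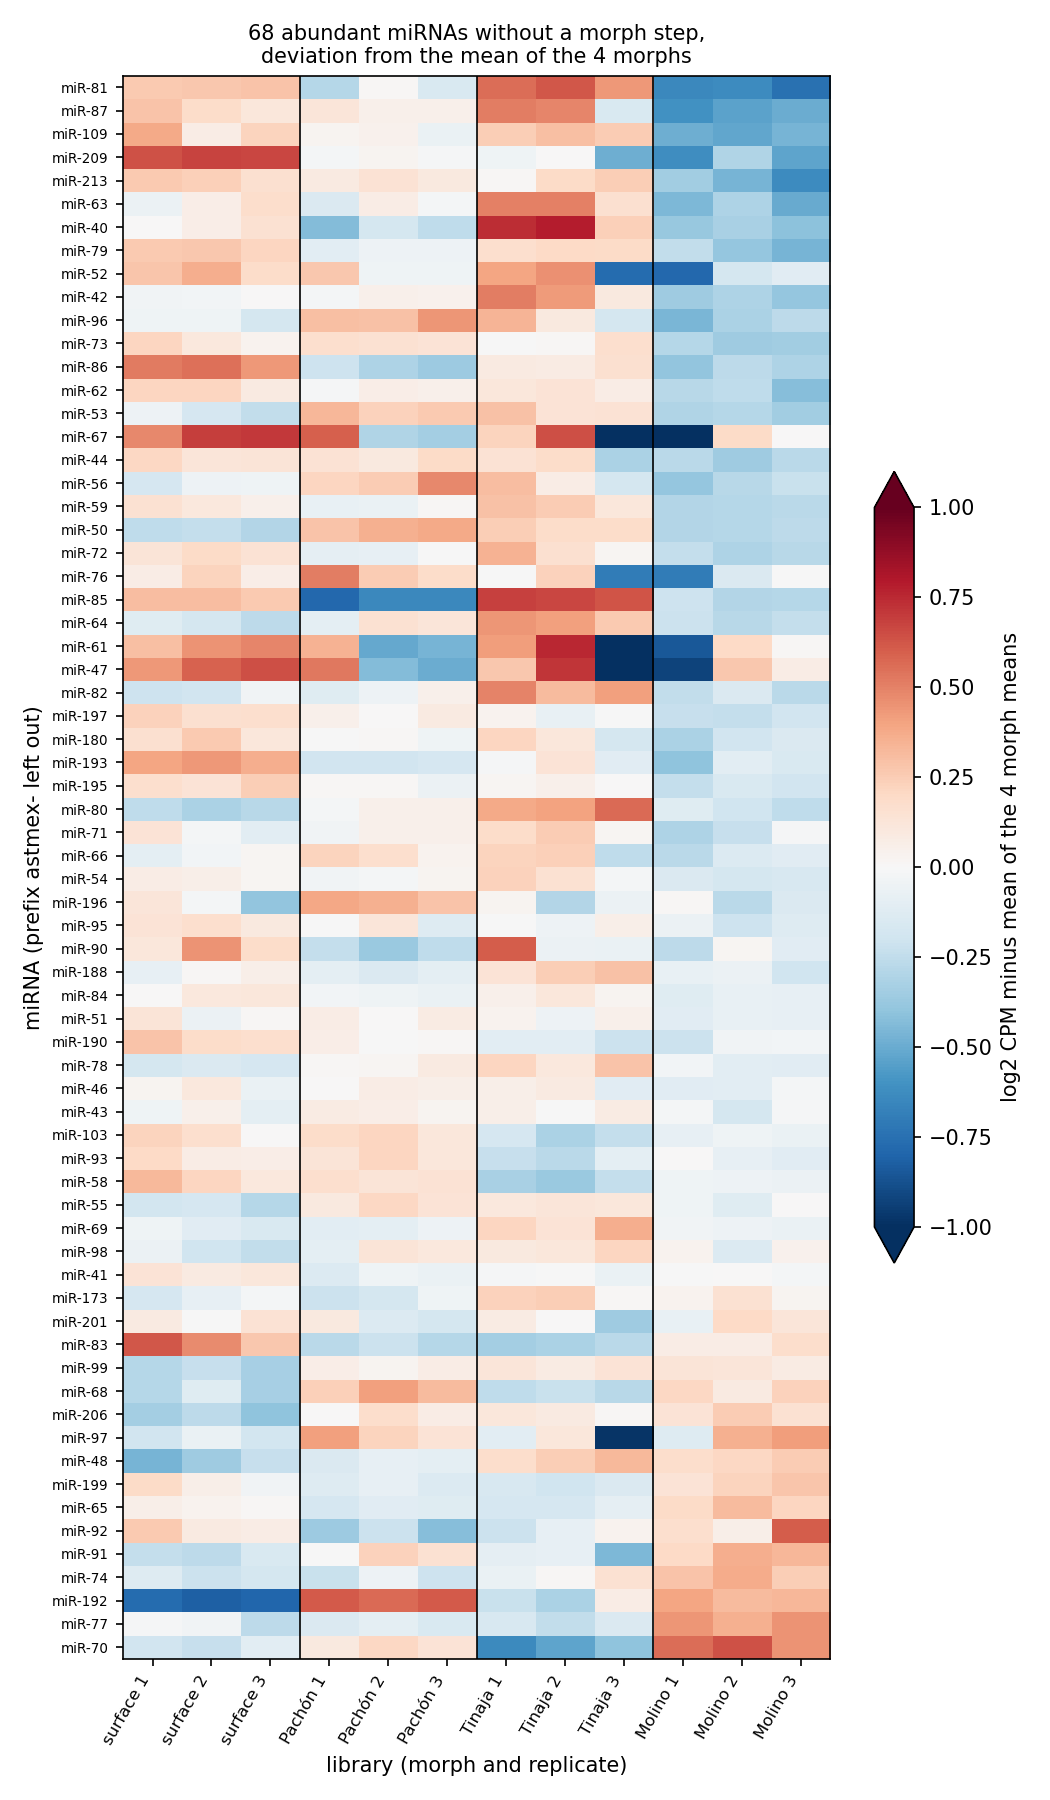
Level of each of the 68 members (rows, ordered by the difference of Molino from the other morphs) in each of the 12 libraries (columns), as log2 CPM minus the mean of the 4 morph means, with colours saturating at −1 and 1. Most rows are pale, 19 rows are blue in all Molino libraries without overlap, and miR-47, miR-61, and miR-67 change colour between libraries of the same morph.

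The rule bounds each gap but not the whole span, the difference between the highest and the lowest morph mean of log2 CPM. Spans ran from 0.13 to 1.39, with a median of 0.52, a 1.44-fold difference. A span under 0.5 was found in 31 members, 0.5 to 1 in 32, and at least 1 in 5. For comparison, the median span was 0.36 for the 43 miRNAs with at least 10000 counts that met the same gap rule. It was 0.75 for the 52 with 100 to 1000 counts that did, and 1.70 for the 20 of the members' count range with a larger gap. These spans follow in part from the rule and were not compared by a test.

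The spread between replicates was not used by the rule. The SD within morphs, pooled over the 4 morphs, had a median of 0.083 on the log2 scale among the members. Among the 20 miRNAs of the same count range with a larger gap it was 0.113. Those 20 had fewer counts, with a median of 1940 against 3031, and a median counting error of 0.035 against 0.027. Over all 683 miRNAs, most of them far less abundant, it was 0.256. The span was at least 3 within-morph SDs in 54 of the 68 members, against 74.2% of all miRNAs. It exceeded the SD in all but 1 member, miR-61. A range over 4 morph means can exceed the SD from replicate spread alone, so nothing is read from this last count. The smallest spread was that of miR-41, at 0.034, and of miR-99, also at 0.034, and the largest that of miR-67, at 0.80, and of miR-47, at 0.77.

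**Figure D2:**
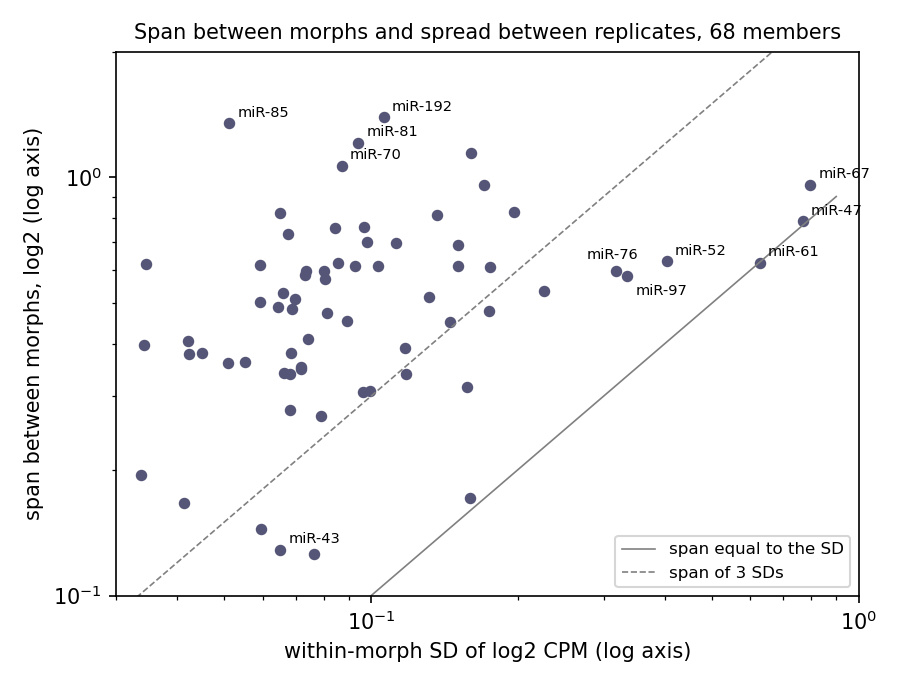
Span between the highest and the lowest morph mean (vertical, log2 scale of CPM, log axis) against the SD within morphs (horizontal, log axis) for the 68 members, one point each. The points of miR-192, miR-85, miR-81, and miR-70 lie far above the dashed line of 3 SDs, and those of miR-67, miR-47, and miR-61 lie near the solid line, where the span equals the SD.

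In 6 members the libraries of all 4 morphs were separate, with no overlap between any morphs, which holds for 9.66% of all miRNAs. In miR-192, miR-70, miR-79, and miR-78 this separation did not hold under every scaling of the libraries described further on. The widest span was that of miR-192. Its level was 432, 418, and 426 CPM in surface fish, 1130.1, 1092, and 1126 CPM in Pachón, 631, 593, and 777 CPM in Tinaja, and 971, 919, and 929 CPM in Molino. All 9 cave libraries lay above the 3 surface fish libraries, and the order from low to high was surface fish, Tinaja, Molino, and Pachón. The log2 difference from surface fish was 1.39 (standard error 0.08) in Pachón, 0.65 (standard error 0.08) in Tinaja, and 1.14 (standard error 0.08) in Molino, comparisons that share the surface fish libraries. Pachón thus held 2.62 times the level of surface fish without any gap of 0.7 on the scale of the rule, since Tinaja and Molino filled the range between them.

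The next in span, miR-85, was ordered differently. Its libraries gave 219, 219, and 212 CPM in surface fish, 102, 113, and 113 CPM in Pachón, 284, 280.2, and 273 CPM in Tinaja, and 153, 144, and 145 CPM in Molino. Pachón was lowest and Tinaja highest, with surface fish and Molino between them. Between these cave morphs the log2 difference, Pachón minus Tinaja, was −1.35 (standard error 0.07), a 2.55-fold difference, although neither differed from surface fish by a full log2 unit, at −0.99 (standard error 0.07) for Pachón and 0.36 (standard error 0.07) for Tinaja.

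Tinaja was highest in miR-81 too, and Molino lowest. The levels of miR-81 were 186, 187, and 189 CPM in surface fish, 127, 156, and 139 CPM in Pachón, 229, 238, and 209.6 CPM in Tinaja, and 99.0, 100.1, and 92.1 CPM in Molino. Molino differed from Tinaja by −1.22 (standard error 0.08) and from surface fish by −0.95 (standard error 0.08) on the log2 scale. The reverse order at the extremes was seen in miR-70, which was lowest in Tinaja and highest in Molino. It was counted at 257, 249.7, and 273 CPM in surface fish, 314, 339, and 322 CPM in Pachón, 188, 204, and 222 CPM in Tinaja, and 431, 456, and 400.3 CPM in Molino. Molino exceeded Tinaja by 1.07 (standard error 0.08) and surface fish by 0.72 (standard error 0.08).

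The last pair of fully separated members moved within narrower limits. For miR-79 the levels were 299, 300.1, and 289.6 CPM in surface fish, 232, 241, and 239.9 CPM in Pachón, 279.6, 285, and 284 CPM in Tinaja, and 209.6, 190.3, and 180.4 CPM in Molino. Surface fish and Tinaja lay close together, with a log2 difference of Tinaja from surface fish of −0.07 (standard error 0.07) and no overlap of libraries, and Molino lay below both, at −0.61 (standard error 0.07) relative to surface fish. For miR-78 they were 244, 249, and 245 CPM in surface fish, 277, 278, and 294 CPM in Pachón, 319, 297, and 335 CPM in Tinaja, and 269.7, 256, and 254 CPM in Molino. Here surface fish was lowest and Tinaja highest, a difference of 0.36 (standard error 0.07), and the difference of Molino from surface fish was close to its error, at 0.08 (standard error 0.07).

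**Figure D3:**
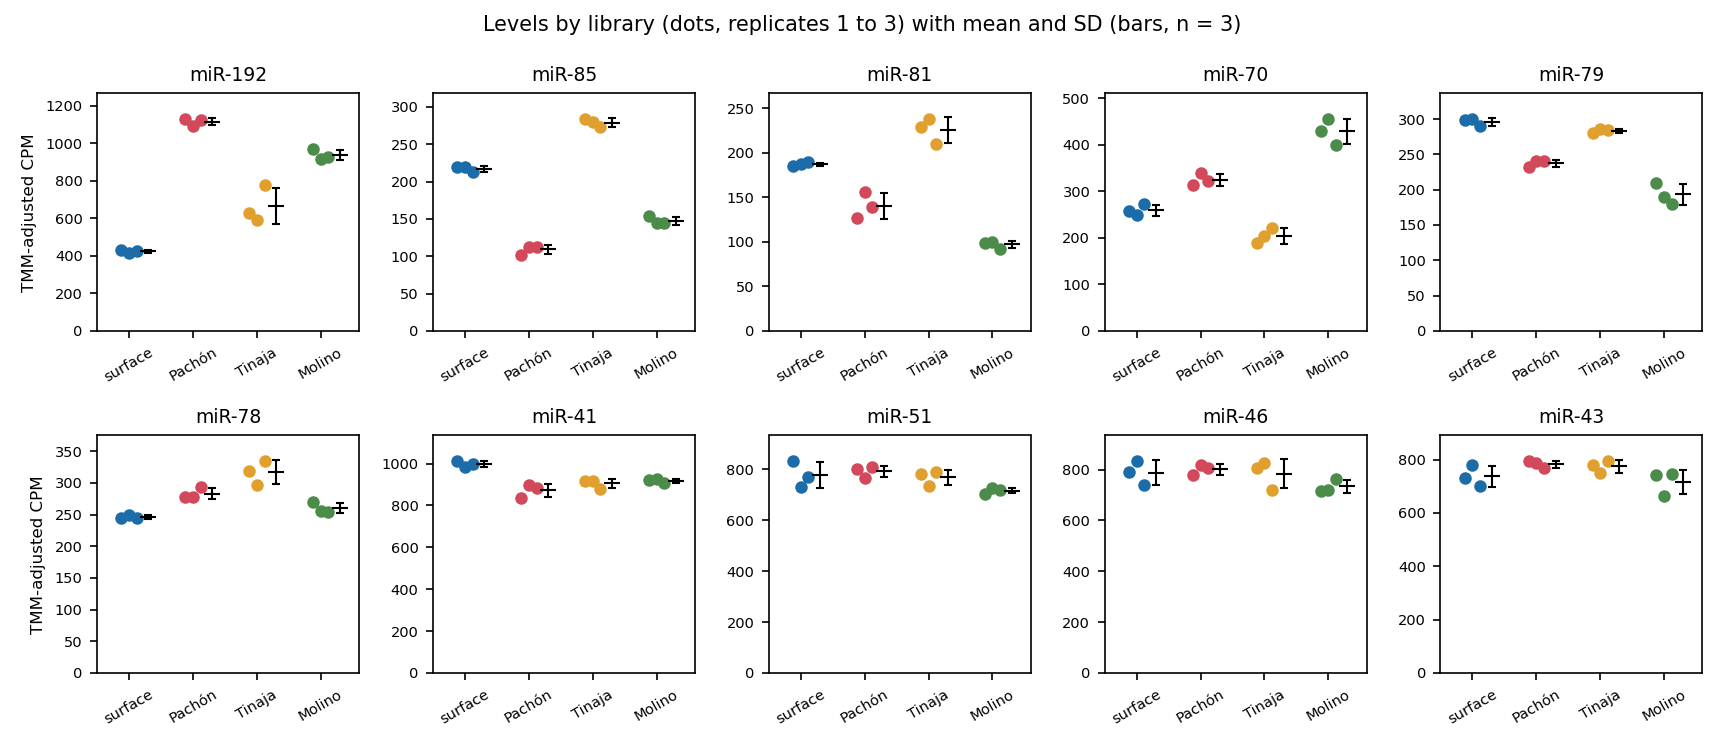
TMM-adjusted CPM (vertical, starting at 0) of 10 members by morph, with a dot for each library and a bar for the mean and SD of the 3 libraries. On this scale the 4 morphs are separate in miR-192, miR-85, miR-81, miR-70, miR-79, and miR-78. In miR-192, miR-70, miR-79, and miR-78 this did not hold under every scaling. Only surface fish stands apart in miR-41, by a log2 difference of 0.15, and only Molino in miR-51, by −0.12. No morph stands apart from all others in miR-46 and miR-43.

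At the other end, miR-46, miR-43, and miR-51 had the smallest spans, at 0.13, 0.13, and 0.14. The level of miR-46 was 792, 834, and 739 CPM in surface fish, 778, 819, and 806 CPM in Pachón, 806, 826, and 718 CPM in Tinaja, and 717, 721, and 765 CPM in Molino. Molino lay below Pachón without overlap, and all other pairs of morphs overlapped. That of miR-43 was 731, 779.6, and 703 CPM in surface fish, 794, 786, and 769 CPM in Pachón, 782, 748, and 795 CPM in Tinaja, and 741, 665, and 745 CPM in Molino. Here Molino lay below Pachón and Tinaja without overlap on the TMM scale and overlapped surface fish. With CPM on library totals Molino overlapped Tinaja too. In miR-51, the last of them, levels stood at 833, 732, and 769 CPM in surface fish, 802, 766, and 808 CPM in Pachón, 781, 735, and 788 CPM in Tinaja, and 705, 725, and 719.8 CPM in Molino. Its Molino libraries lay just under the other 9, with a difference of −0.12 (standard error 0.05) from the mean of the other morphs. This separation did not hold under every scaling of the libraries described further on. The smallest spread between replicates was found in miR-41 and miR-99. miR-41, the second most abundant member, was at 1013, 983, and 997 CPM in surface fish, 838, 896, and 882 CPM in Pachón, 917, 919, and 879 CPM in Tinaja, and 921, 926, and 908 CPM in Molino, so that surface fish lay above every cave library by 0.15 (standard error 0.05) relative to the mean of the cave morphs, a separation that was lost under at least 1 scaling. miR-99 was at 108, 112, and 105 CPM in surface fish, 138, 134, and 139 CPM in Pachón, 143, 139.7, and 145 CPM in Tinaja, and 144, 143, and 139 CPM in Molino. Surface fish was below all 9 cave libraries, with a difference of −0.38 (standard error 0.06), under every scaling. On the TMM scale Pachón lay just below Tinaja and Molino, which overlapped. With CPM on library totals it overlapped them too.

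Ordered by their means, Molino was the lowest morph in 38 of the 68 members (27.1% of all miRNAs), Tinaja in 14 (26.8%), surface fish in 11 (26.2%), and Pachón in 5 (19.9%). The highest was surface fish in 21 members (17.6% of all miRNAs), Tinaja in 21 (20.8%), Pachón in 17 (24.2%), and Molino in 9 (37.5%). The most frequent order, from low to high, was Molino, Pachón, Tinaja, and surface fish, in 10 members, and 9 members had the last 2 exchanged. These orders take no account of overlap between libraries and depend on the scaling described further on.

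To describe consistent shifts, each morph was set against the other 3. A member was counted where the 3 libraries of a morph all lay above, or all below, the other 9. At least 1 morph stood apart in this way in 49 of the 68 members, against 65.4% of all miRNAs, and in 9 members 2 morphs did, against 18.9%. The 19 members in which no morph stood apart from the other 9 libraries were miR-43, miR-44, miR-46, miR-47, miR-52, miR-61, miR-66, miR-67, miR-71, miR-76, miR-90, miR-91, miR-93, miR-95, miR-97, miR-98, miR-173, miR-180, and miR-201. Pairs of morphs could still be separate. Among them, miR-93 had a span of 0.35 with an SD within morphs of 0.072, since Pachón and surface fish lay together above Molino and Tinaja on the TMM scale. With CPM on library totals Tinaja overlapped surface fish. The levels of miR-93 were 167, 153, and 152 CPM in surface fish, 159, 168, and 157 CPM in Pachón, 124, 120.5, and 136 CPM in Tinaja, and 146, 137, and 134 CPM in Molino. In miR-91, with a span of 0.52 and an SD of 0.13, Molino lay above surface fish without overlap, while Pachón reached into the range of Molino and Tinaja into that of surface fish. It was at 152, 149, and 161 CPM in surface fish, 179, 210.5, and 199 CPM in Pachón, 169, 169.6, and 132 CPM in Tinaja, and 206, 231, and 226 CPM in Molino. A single high library set the Tinaja mean of miR-90, which was at 222, 279, and 232 CPM in surface fish, 174, 158, and 172 CPM in Pachón, 312, 196, and 195 CPM in Tinaja, and 171, 207, and 189 CPM in Molino. The spans of miR-95, miR-173, miR-98, miR-66, miR-71, miR-180, and miR-44 ran from 0.27 to 0.45, with SDs of 0.079 to 0.158.

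In the comparison of river with cave, surface fish stood above all cave libraries in 9 members (7.61% of all miRNAs did) and below them in 6 (9.66% of all). With plain CPM these numbers were 5 and 3. The 9 were miR-209, miR-86, miR-83, miR-193, miR-79, miR-190, miR-197, miR-195, and miR-41, with log2 differences of 0.15 to 0.87 from the mean of the cave morphs. The largest was that of miR-209, at 167, 171, and 169.8 CPM in surface fish, 105, 109, and 106 CPM in Pachón, 104, 107, and 76.1 CPM in Tinaja, and 69.2, 86.8, and 74.2 CPM in Molino. Surface fish exceeded the mean of the cave morphs by 0.87 (standard error 0.09), and the difference of Molino from surface fish alone was −1.14 (standard error 0.11). Next was miR-86, whose libraries held 178, 182, and 168 CPM in surface fish, 108, 100.2, and 96.4 CPM in Pachón, 132, 131, and 139 CPM in Tinaja, and 94.2, 104, and 99.9 CPM in Molino. The difference of surface fish was 0.67 (standard error 0.06), with Tinaja between surface fish and the other cave morphs. In miR-83 the levels were 639, 576, and 500.1 CPM in surface fish, 344, 359, and 341 CPM in Pachón, 329, 334, and 344 CPM in Tinaja, and 438, 438, and 469.9 CPM in Molino. Surface fish was higher by 0.61 (standard error 0.06), and here Molino was the cave morph nearest to it. The 6 members low in surface fish were miR-192, miR-48, miR-206, miR-99, miR-55, and miR-78, with log2 differences of −1.06 to −0.22. Beside miR-192, described above, miR-48 was at 606, 650.2, and 712 CPM in surface fish, 755, 786, and 779 CPM in Pachón, 940.4, 988, and 1042 CPM in Tinaja, and 941, 965, and 994 CPM in Molino. Surface fish lay lower by a difference of −0.46 (standard error 0.06), with Pachón between it and the other cave morphs. This separation of surface fish did not hold under every scaling described further on. In miR-206 the cave morphs lay closer together, with Tinaja below Molino on the TMM scale but overlapping it with plain CPM. It was at 99.6, 105, and 95.1 CPM in surface fish, 126, 143, and 132 CPM in Pachón, 136, 134, and 127 CPM in Tinaja, and 138, 150.2, and 139.6 CPM in Molino, a difference of −0.45 (standard error 0.06) for surface fish, while Pachón and Tinaja differed by 0.02 (standard error 0.07). Of the members high in surface fish, miR-193 and miR-190 kept this under every scaling described further on, as did miR-86 and miR-209. In miR-193 the libraries held 421, 431, and 410.2 CPM in surface fish, 280.2, 279, and 284 CPM in Pachón, 317, 352, and 296 CPM in Tinaja, and 242, 297, and 287 CPM in Molino, a difference of 0.53 (standard error 0.07) for surface fish. In miR-190 they held 942, 879, and 871 CPM in surface fish, 809.5, 771, and 779 CPM in Pachón, 719.8, 721, and 666 CPM in Tinaja, and 668, 757, and 759 CPM in Molino, a difference of 0.28 (standard error 0.06), with Pachón nearest to surface fish.

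As over all miRNAs, Pachón stood apart least often. Its libraries lay above the other 9 in 4 members (9.52% of all miRNAs) and below in 2 (5.71% of all). The 4 were miR-192, at 0.79 (standard error 0.06) from the mean of the other morphs, miR-50, miR-196, and miR-68, and the 2 were miR-85, at −0.93 (standard error 0.06), and miR-92. In miR-50 the levels paired the morphs. They were 653, 659.9, and 635 CPM in surface fish, 952, 999.7, and 1015 CPM in Pachón, 925, 887, and 885 CPM in Tinaja, and 636, 639, and 651 CPM in Molino. Pachón and Tinaja were close, as were surface fish and Molino, with a difference of 0.61 (standard error 0.06) for Pachón and −0.02 (standard error 0.06) for Molino from surface fish. The counts of miR-196 corresponded to 128, 115, and 88.8 CPM in surface fish, 153, 150.1, and 143 CPM in Pachón, 119, 95.3, and 112 CPM in Tinaja, and 118, 96.7, and 106 CPM in Molino. Pachón was above the rest by 0.45 (standard error 0.09), and the surface fish libraries were spread widely. Among the members low in Pachón, miR-92 was at 234, 208, and 205 CPM in surface fish, 151, 168, and 145 CPM in Pachón, 168, 184, and 199.7 CPM in Tinaja, and 219, 203, and 297 CPM in Molino. Pachón was below the rest, with a difference of −0.45 (standard error 0.10), and Molino replicate 3 stood far above the other Molino libraries. The separation of Pachón in miR-92 and in miR-50 did not hold under every scaling described further on.

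Tinaja was above all others in 10 members (9.37% of all miRNAs) and below in 4 (9.22% of all). The 10 were miR-85, miR-40, miR-81, miR-80, miR-82, miR-64, miR-42, miR-69, miR-188, and miR-78, with log2 differences of 0.27 to 0.88. The most abundant member, miR-40, was at 953, 998, and 1059 CPM in surface fish, 707, 843, and 799.7 CPM in Pachón, 1588, 1638, and 1124 CPM in Tinaja, and 731, 761, and 716 CPM in Molino. Tinaja exceeded the mean of the other morphs by 0.80 (standard error 0.09), and Tinaja replicate 3 lay nearer to surface fish than the other Tinaja libraries did. Beside miR-40, miR-81, and miR-85, the separation held under every scaling described further on in miR-80, miR-82, miR-64, and miR-42. The levels of miR-80 were 211, 201, and 206 CPM in surface fish, 247, 260.0, and 259 CPM in Pachón, 326, 331, and 372 CPM in Tinaja, and 230.4, 218, and 209.7 CPM in Molino, and Tinaja exceeded the others by 0.60 (standard error 0.06). Those of miR-82 were 97.5, 98.4, and 109.7 CPM in surface fish, 103, 109, and 116 CPM in Pachón, 159, 139.9, and 149.6 CPM in Tinaja, and 95.0, 102, and 93.4 CPM in Molino, an excess of 0.55 (standard error 0.06). In both of these, surface fish had the lowest or second lowest mean. miR-64 was at 449, 432, and 407 CPM in surface fish, 456, 543, and 531 CPM in Pachón, 664, 649, and 585 CPM in Tinaja, and 421, 403, and 413 CPM in Molino, with 0.50 (standard error 0.06) for Tinaja. miR-42 was at 776, 779, and 797 CPM in surface fish, 783, 821, and 820.0 CPM in Pachón, 1130.2, 1069.8, and 851 CPM in Tinaja, and 620.2, 643, and 607 CPM in Molino, with 0.47 (standard error 0.07) for Tinaja and, in the opposite direction, −0.47 (standard error 0.07) for Molino. The 4 members low in Tinaja were miR-70, at −0.69 (standard error 0.07), miR-58, miR-103, and miR-199. The level of miR-58 was 660.3, 613, and 567 CPM in surface fish, 593, 576, and 581 CPM in Pachón, 420.1, 407, and 446 CPM in Tinaja, and 513, 508, and 505 CPM in Molino, a difference of −0.42 (standard error 0.06) for Tinaja. That of miR-103, the second least abundant member, was 126, 121, and 108 CPM in surface fish, 123, 125, and 116 CPM in Pachón, 96.1, 86.4, and 91.3 CPM in Tinaja, and 102, 105, and 103 CPM in Molino, a difference of −0.32 (standard error 0.06). In both, Molino lay between Tinaja and the other morphs. Without Tinaja replicate 3, the library farthest from its morph mean, 18 members were above and 6 below. None of the 4 members low in Tinaja kept their separation under every scaling of the libraries tried. With plain CPM 12 members were above and 0 below, and with RLE adjustment 14 and 1.

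Molino stood apart most often, as it did over all miRNAs, and on this scale mostly on the low side among the members. Its libraries lay below the other 9 in 19 members (13.2% of all miRNAs) and above them in 4 (20.1% of all). The 19 were miR-81, miR-87, miR-109, miR-213, miR-63, miR-79, miR-42, miR-96, miR-73, miR-62, miR-53, miR-56, miR-59, miR-72, miR-197, miR-195, miR-54, miR-84, and miR-51, with log2 differences of −0.90 to −0.12 from the mean of the other morphs. The lowest, miR-81, was at −0.90 (standard error 0.07). It was followed by miR-87, at 249.6, 233, and 221 CPM in surface fish, 223, 213, and 213 CPM in Pachón, 292, 287, and 184 CPM in Tinaja, and 134, 141, and 145 CPM in Molino. Molino was lower by a difference of −0.74 (standard error 0.11), and Tinaja replicate 3 lay well under the other Tinaja libraries. Next was miR-109, at 145, 117, and 129.6 CPM in surface fish, 113, 114, and 106 CPM in Pachón, 132, 137, and 133 CPM in Tinaja, and 79.0, 77.5, and 80.3 CPM in Molino, with a difference of −0.66 (standard error 0.07) and little spread in Molino. The least abundant member, miR-213, was at 121, 119, and 113 CPM in surface fish, 107, 111, and 107 CPM in Pachón, 102, 115, and 119.6 CPM in Tinaja, and 79.0, 72.7, and 64.8 CPM in Molino. It too was low in Molino alone, by a difference of −0.64 (standard error 0.07). Smaller shifts of the same sign were found in miR-63, miR-73, and miR-62. In miR-63, at 425, 464, and 498 CPM in surface fish, 399, 465, and 437 CPM in Pachón, 628, 626, and 494 CPM in Tinaja, and 323, 356, and 311 CPM in Molino, the difference of Molino was −0.57 (standard error 0.08). In miR-73, at 305, 284, and 269.7 CPM in surface fish, 296, 293, and 289.5 CPM in Pachón, 263, 266, and 297 CPM in Tinaja, and 216, 206, and 207 CPM in Molino, it was −0.44 (standard error 0.06), and in miR-62, at 518, 517, and 473 CPM in surface fish, 443, 466, and 462 CPM in Pachón, 482, 489, and 468 CPM in Tinaja, and 367, 374, and 332 CPM in Molino, it was −0.42 (standard error 0.06). In miR-73 the other 3 morphs overlapped. In miR-62 surface fish and Tinaja overlapped, and Pachón lay just below both without overlap on the TMM scale. With plain CPM Pachón overlapped Tinaja. The 4 members high in Molino were miR-70, at 0.73 (standard error 0.06), miR-77, miR-74, and miR-65. In miR-77, at 273, 269, and 230.1 CPM in surface fish, 249, 258, and 249 CPM in Pachón, 247, 233, and 250.0 CPM in Tinaja, and 374, 353, and 378 CPM in Molino, the other morphs lay together, and Molino exceeded them by 0.55 (standard error 0.06). In miR-74, at 311, 293, and 301 CPM in surface fish, 292, 328, and 294 CPM in Pachón, 325, 342, and 377 CPM in Tinaja, and 415, 439, and 404 CPM in Molino, the excess was 0.40 (standard error 0.06), with Tinaja replicate 3 nearest to Molino.

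The split between low and high members in Molino depended on the scale, with more low than high members under TMM, plain CPM, and RLE. Over the members, the log2 difference of Molino from the other morphs had a median of −0.23 and lay below 0 in 52 of 68, while over all miRNAs the median was 0.22. Plain CPM gave 24 low and 4 high members without overlap, and RLE adjustment 28 and 3. When the size factors were taken from the 88 miRNAs of 1000 to 10000 counts alone, by the median of their ratios, a choice made after these values were seen, 11 members were low and 11 high in Molino, with a median of −0.05 over the members and 0.39 over all miRNAs. The 68 members are among these 88 miRNAs, so this scaling draws their median towards 0 by construction. The more even split was in part set by the scaling, and nothing is read from it. In surface fish the same scaling turned 9 high and 6 low into 6 high and 11 low. For counts per morph under other scalings or without a library, here and elsewhere, no share over all miRNAs is given. Whether such changes are particular to the members was therefore not tested. Across the 4 scalings, 27 members kept the separation of at least 1 morph in the same direction (56.1% of all miRNAs did). For Molino these were 11 low members, miR-42, miR-59, miR-62, miR-63, miR-72, miR-73, miR-79, miR-81, miR-87, miR-109, and miR-213, and 3 high ones, miR-65, miR-70, and miR-77. For Tinaja 7 high members and for Pachón 2 high members and 1 low member kept it, and for surface fish 4 high members and 3 low ones.

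**Figure D4:**
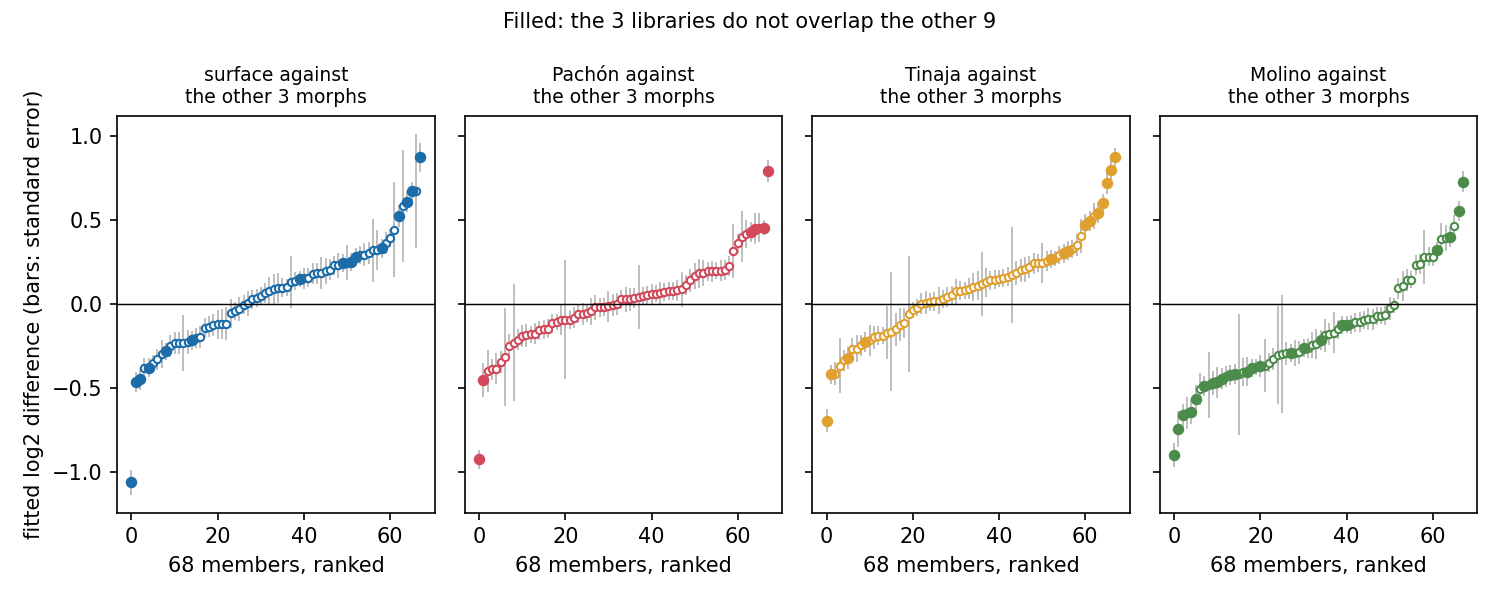
Fitted log2 difference of each morph from the mean of the other 3 (vertical, bars for the standard error) for the 68 members, ranked within each panel. Filled points mark members whose 3 libraries do not overlap the other 9, which number 15 for surface fish, 6 for Pachón, 14 for Tinaja, and 23 for Molino, where 19 of the filled points lie below 0.

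The pairwise comparisons of morphs were fitted with edgeR over all 683 miRNAs. An adjusted p under 0.05 was reached between Pachón and surface fish by 34 of the 68 members (49.8% of all miRNAs), of which 17 were higher in Pachón (26.4% of all) and 17 lower (23.4% of all). Between Tinaja and surface fish 33 members did (48.5% of all), 21 higher in Tinaja (24.9% of all) and 12 lower (23.6% of all). Between Molino and surface fish 40 members did (55.3% of all), 11 higher in Molino (32.9% of all) and 29 lower (22.4% of all). These comparisons share the surface fish libraries. Among cave morphs, 28 members did between Pachón and Tinaja (45.8% of all), 9 higher in Pachón (25.2% of all) and 19 lower (20.6% of all). Between Molino and Pachón there were 39 (57.8% of all), 10 higher in Molino (32.5% of all) and 29 lower (25.3% of all). Between Molino and Tinaja there were 47 (63.5% of all), 12 higher in Molino (35.1% of all) and 35 lower (28.4% of all). At least 1 comparison was past the threshold in 61 of the 68 members (87.4% of all). The morph means of these libraries chose the members, so nothing is read from these numbers beyond the size of the shifts behind them. With the fold-change rule of at least 2 of the study's methods added, 1 member was left between Pachón and surface fish (29.7% of all miRNAs), 0 between Tinaja and surface fish (28.7%), 2 between Molino and surface fish (34.8%), 1 between Pachón and Tinaja (24.9%), 0 between Molino and Pachón (39.5%), and 2 between Molino and Tinaja (42.8%). These were miR-192 in Pachón and in Molino and miR-209 in Molino, each against surface fish, miR-85 between Pachón and Tinaja, and miR-70 and miR-81 between Molino and Tinaja. The gap rule bounds these numbers.

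All 6 comparisons were past 0.05 in miR-70, miR-81, miR-85, and miR-192, or 5.88% of the members (6.88% of all miRNAs). None was in 7 members, or 10.3% (12.6% of all). These shares lie near those of all miRNAs, and the morph means chose the members, so nothing is read from them. The levels of the 7 were of different kinds. Flat levels with close replicates were found in miR-43, miR-46, and miR-51, with spans of 0.13 to 0.14, and a span of 0.17 with an SD of 0.16 in miR-201. In miR-47, miR-61, and miR-67 the spans were larger, at 0.78, 0.63, and 0.96, or 1.72-, 1.54-, and 1.95-fold. Replicates of 1 morph differed by more, since Tinaja replicates 2 and 3 were 5.23-, 3.72-, and 5.72-fold apart.

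Those last 3 members belonged to a group that varied together between replicates. A within-morph SD above 0.3 was found in miR-67, miR-47, miR-61, miR-52, miR-97, and miR-76, chosen after their values were seen. The other 62 members had an SD of 0.034 to 0.226. The libraries of miR-67 held 499, 578, and 586 CPM in surface fish, 542, 291, and 283 CPM in Pachón, 417, 559, and 97.7 CPM in Tinaja, and 176, 409, and 358 CPM in Molino. Tinaja replicate 3 was far below the other 2 Tinaja libraries, Molino replicate 1 below the other Molino libraries, and Pachón replicate 1 above the other Pachón libraries. The same libraries stood out in miR-47, at 1032, 1153, and 1198 CPM in surface fish, 1106, 568, and 542 CPM in Pachón, 922, 1257, and 240.2 CPM in Tinaja, and 404, 925, and 808 CPM in Molino. They did so again in miR-61, at 728, 807, and 831 CPM in surface fish, 751, 415, and 429 CPM in Pachón, 789, 997, and 268 CPM in Tinaja, and 329, 678, and 596 CPM in Molino. Tinaja replicate 2 held 5.72 times the level of Tinaja replicate 3 in miR-67, 5.23 times in miR-47, and 3.72 times in miR-61. For miR-52, miR-97, and miR-76 the ratio was 2.33, 2.14, and 1.91. Molino replicate 2 exceeded Molino replicate 1 by ratios of 2.32 in miR-67, 2.29 in miR-47, 2.06 in miR-61, and 1.40 to 1.53 in the remaining members of the group. In surface fish the libraries differed little, by a ratio of at most 1.17 between replicates 3 and 1.

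The deviations from the morph mean ran in parallel over the 12 libraries, with Pearson's r of 0.95 to 0.999 between miR-67 and the other 5, a description over libraries that share their depth and composition. The counts of miR-67 were 0.407 to 0.522 times those of miR-47 in every library. A pair of very abundant miRNAs that are no members, miR-2 and miR-3, deviated in the same libraries, with r of 0.98 and 0.97 and ratios of 1.92 and 1.84 between Tinaja replicates 2 and 3. Tinaja replicate 3 also had the largest TMM factor, 1.14, the smallest total of the Tinaja libraries, and the largest deviation of the remaining 62 members, with a root mean square of 0.154 on the log2 scale against 0.051 to 0.112 in the other libraries. What part these play in the levels of the 6 members was not tested. Without this library, the within-morph SD of miR-67 was 0.47 and that of miR-47 was 0.48, and the Tinaja mean of miR-67 moved from 358 to 488 CPM. The spans of miR-67 and miR-47 were then 0.90 and 0.75. That of miR-61 rose from 0.63 to 0.80 and that of miR-52 from 0.63 to 0.78. That of miR-97 fell from 0.58 to 0.41, and that of miR-76 stayed at 0.60. The rule used only the mean of the 3 libraries of a morph, which a single deviating library moves. An r above 0.9 with miR-67 was found in 7 members, not all of them in the group of 6. In the opposite sense, miR-80, miR-192, miR-69, and miR-78 had r of −0.92, −0.88, −0.85, and −0.83 with miR-67, on SDs of only 0.055 to 0.106.

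**Figure D5:**
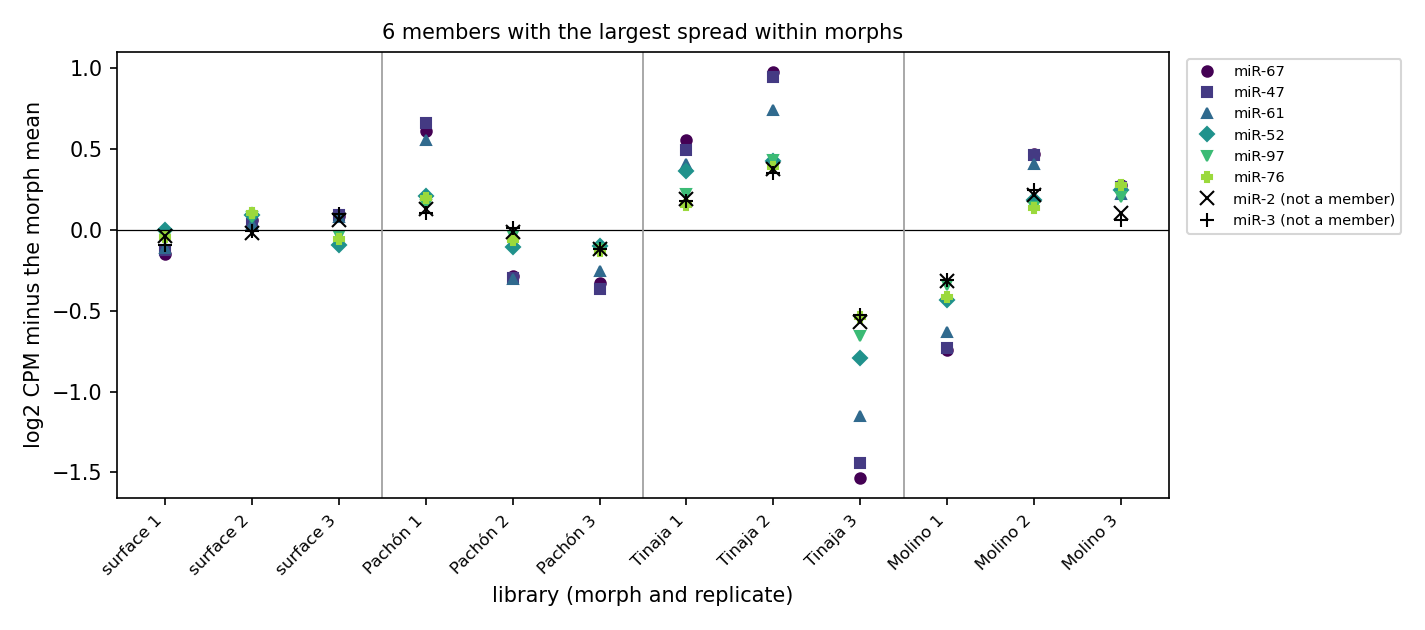
Deviation of log2 CPM from the mean of the own morph (vertical) in each library (horizontal, 3 per morph) for the 6 members with a within-morph SD above 0.3 and for miR-2 and miR-3. All points lie low in Tinaja replicate 3 and Molino replicate 1, down to −1.53 for miR-67, and high in Tinaja replicate 2, up to 0.98.

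Some members kept a nearly fixed ratio to each other over all 12 libraries. Of the 2278 pairs of members, the SD of the log2 ratio was smallest for miR-59 and miR-72, at 0.060, where counting error alone would give 0.032 and the median pair had 0.333. The counts of miR-59 were 1.46 to 1.66 times those of miR-72. For miR-65 and miR-199 the SD was 0.061, with a ratio of 1.32 to 1.53, and for miR-56 and miR-96 it was 0.070, with a ratio of 5.01 to 5.995. The members of a pair therefore shared their pattern over morphs. miR-59 was at 643, 624, and 600.2 CPM in surface fish, 551, 554, and 582 CPM in Pachón, 709, 689, and 624 CPM in Tinaja, and 472, 474, and 479 CPM in Molino, and miR-72 at 407, 425, and 410.5 CPM in surface fish, 349.6, 351, and 370.4 CPM in Pachón, 474, 415, and 377 CPM in Tinaja, and 315, 299.6, and 307 CPM in Molino. Both were lowest in Molino. In contrast, miR-65 was highest in Molino, at 449.6, 442, and 433 CPM in surface fish, 384, 398, and 395 CPM in Pachón, 383, 384, and 405 CPM in Tinaja, and 492, 536, and 499 CPM in Molino. miR-199 followed it, at 342, 312, and 293 CPM in surface fish, 274, 284, and 273 CPM in Pachón, 268, 262, and 271 CPM in Tinaja, and 330.1, 349, and 363 CPM in Molino, with its surface fish libraries reaching the range of Molino. The level of miR-56 was 599, 648, and 654 CPM in surface fish, 779, 800.0, and 937 CPM in Pachón, 830.1, 708, and 594 CPM in Tinaja, and 513, 553, and 575 CPM in Molino. miR-96 was at 119.6, 119.7, and 109 CPM in surface fish, 151, 151, and 167 CPM in Pachón, 156, 131, and 109 CPM in Tinaja, and 89.3, 98.9, and 103 CPM in Molino, again highest in Pachón on average and lowest in Molino. Whether the members of such a pair share reads, a precursor, or a locus was not tested, since sequences and positions were not analysed here.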

How the data were processed

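Per the labels, small RNA of wild-type *Astyanax mexicanus* embryos at 24 hpf was sequenced in 12 libraries, 3 for each of 4 morphs, and the submitters' processing notes name bcl2fastq 2.20 and cutadapt 2.5. According to the study's methods, miRNAs were predicted with miRDeep2 on the A. mexicanus 2.0 genome, identical ones were collapsed with CD-HIT, and reads were assigned with quantifier.pl. The authors deposited raw counts per miRNA, 1 column per library, and no value column was left out (0 unused). Reads shared by similar miRNAs may be counted for more than 1 of them. Library totals of 5539157 to 15279059 limit the precision, and standard errors also hold the spread between libraries.

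All 683 miRNAs were fitted together with edgeR 4.0.16 in R 4.3.3 (TMM factors of 0.937 to 1.136, quasi-likelihood test, a mean for each morph, no filter on low counts), and p-values were adjusted over all of them by the Benjamini-Hochberg method. Fold changes are fitted log2 differences, and their standard errors were derived from the F statistics of the test. Log2 levels used a pseudocount of 0.5 CPM. The scripts were tested on simulated data.

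The members and the rule for named miRNAs were chosen with earlier results of these data known. Named were, for each morph, up to 3 members above and up to 3 below all other libraries by fitted difference, up to 3 members with all 4 morphs separate, the 3 largest and the 3 smallest spans, the 2 most and the 2 least abundant, the 2 largest and the 2 smallest within-morph SDs, the 3 steadiest ratios, and the miRNAs at each threshold. Further members were named after their values were seen, because all morphs separated, because they held under every scaling, or because replicates deviated together. Replicate numbers did not pair the libraries. The alternatives were DESeq2 1.42.0, other scalings, filters on low counts, a replicate block, other gap thresholds, and leaving out each library.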

Additional observations from a re-analysis of the deposited data

Results flagged for a closer look

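For 11 members, 17 results were picked out because every library of 1 cave morph lay above all surface fish libraries and every library of another lay below them. The same was seen in 21.5% of all miRNAs. These results were picked by the positions of the libraries and not by a test, and no p-value of the difference between the cave morphs is given, since the morph means chose the members. The comparisons share the surface fish libraries. Values are log2 differences from surface fish, with standard errors of 0.06 to 0.11.

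Tinaja was the upper morph in miR-40 (0.53, against −0.36 in Pachón and −0.45 in Molino), in miR-81 (0.27, against −0.41 and −0.95), in miR-85 (0.36, against −0.99 and −0.56), in miR-42 (0.38, against −0.33 in Molino), and in miR-188 (0.23, against −0.11 in Pachón). In miR-53, Pachón (0.42) and Tinaja (0.35) lay above surface fish and Molino (−0.16, standard error 0.07) below. Pachón and Molino stood likewise in miR-56 (0.40 and −0.21), miR-66 (0.18 and −0.14, standard error 0.11 each), and miR-96 (0.43 and −0.26). In miR-66, and for Pachón in miR-188 (standard error 0.07), the differences were small against their errors. Molino was the upper morph in miR-65 (0.20, against −0.17 in Pachón and −0.18 in Tinaja) and in miR-70 (0.72, with Pachón at 0.32, against −0.35 in Tinaja). Of the 17 results, 8 held under all 4 scalings, those of miR-40, miR-42, miR-81, and miR-85 and that of miR-65 between Molino and Pachón. The other 6 members lost theirs under at least 1 scaling. Dixon's test for a single deviating library was not applied.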

How the results depend on the processing

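The 23 named differences of 1 morph from the other 3 kept their direction in all 437 alternative values. They also kept their side of an adjusted p of 0.05. They were chosen as the largest differences among members without overlap in these same libraries, which made this likely beforehand. Separation from the other libraries was lost under at least 1 scaling for surface fish in miR-83 and miR-48 and for Pachón in miR-50 and miR-92. The same held for Tinaja in miR-70, miR-58, and miR-103 and for Molino in miR-74. The number of members past an adjusted p of 0.05 ranged over 20 alternatives, the fold rule aside, from 25 to 42 between Pachón and surface fish, 28 to 37 between Tinaja and surface fish, 35 to 52 between Molino and surface fish, 24 to 31 between Pachón and Tinaja, 31 to 49 between Molino and Pachón, and 39 to 52 between Molino and Tinaja. With a fold change of at least 2 required in addition, they were 1, 0, 2, 1, 0, and 2 in the same order, a stricter rule by construction. With 1 library left out they were 26 to 38, 29 to 37, 35 to 49, 24 to 30, 33 to 44, and 41 to 52. With the replicate number as a block they were 31, 31, 36, 27, 39, and 44. For these counts, the fold rule aside, no share over all miRNAs under the same alternatives is given. Whether the changes are particular to the members was therefore not tested. The replicate numbers did not pair the libraries, since deviations of same-numbered libraries correlated at −0.19 to 0.14 and only 4 of 12 libraries correlated best with their own number. Surface fish stood apart in 8 members with plain CPM against 15 with TMM, and the cause was not tested. With 1 library left out, the members standing apart numbered 15 to 19 for surface fish, 6 to 9 for Pachón, 14 to 24 for Tinaja, with the highest number without Tinaja replicate 3, and 23 to 28 for Molino. The rule gave 58 members with a gap under 0.5 and 81 with a gap under 1.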
